A study of Homo sapiens and Mus musculus with 10 samples.

Results

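The MYC network is a set of transcription factors that share the dimerisation partner MAX or its relative MLX, and 9 of its genes were followed here: MYC, MAX, MXD1, MXD3, MXD4, MXI1, MNT, MLX and MGA. They were chosen by gene symbol, ignoring case, and all 9 were found in both tables, among 27800 human and 24493 mouse symbols. The study measured RNA in 2 myeloid models with and without a KAT6A inhibitor. The enzyme KAT6A acetylates histones and belongs to the MYST group, and WM-1119 is a compound that inhibits it. The human acute myeloid leukaemia line MOLM-13, which carries an MLL fusion gene, received 4 µM WM-1119 for 4 days (3 libraries) or DMSO (3 libraries). The mouse myeloid line ER-Hoxa9, in which HOXA9 is fused to an estrogen-responsive domain, received 2 µM WM-1119 for 4 days (2 libraries) or DMSO (2 libraries). Both ER-Hoxa9 groups were grown with β-estradiol, which keeps the fusion active, and with stem cell factor. The dose differs between the lines, each model is a single line in culture, and the labels do not say whether replicates came from separate cultures. If they did not, the spread behind each p-value may be technical.

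MYC binds DNA as a dimer with MAX, mostly at the E-box CACGTG, and recruits histone acetyltransferases that raise transcription of genes for growth and ribosome production. MXD1, MXD3, MXD4, MXI1 and MNT compete for MAX and bring the SIN3 and HDAC corepressor to the same sites. MLX pairs with MondoA and with some MXD proteins, and MGA joins MAX in a Polycomb complex. In blood cell development MYC is typical of dividing progenitors, and its level is known to decline as myeloid cells mature.

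The letters CACGTG were searched in the 250 bases before each annotated RefSeq start (build GRCh38.p14). The motif reads the same on both strands. Of the 9 members, 8 were used in this search, with 13 such windows. MYC was left out of it, so whether its windows hold the motif is not described. The motif was found in 3 windows, those of MXD4, MNT and MLX, against 6.34% of all 35116 windows in the table and 8.55% of the 12964 windows of genes tested in MOLM-13. The 3 windows with the motif are shown first, with CACGTG in capitals, and that of MXD3, the member with the largest positive fold change in both lines, follows as one without it. A match is a description of these letters and not a measured binding site.
MLX (chr17:42566850-42567099, plus strand): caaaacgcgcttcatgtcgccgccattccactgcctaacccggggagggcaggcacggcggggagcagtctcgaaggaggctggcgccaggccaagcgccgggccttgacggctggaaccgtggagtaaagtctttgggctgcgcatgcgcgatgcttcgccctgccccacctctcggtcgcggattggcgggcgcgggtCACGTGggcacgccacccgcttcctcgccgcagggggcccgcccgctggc
MNT (chr17:2401061-2401310, minus strand): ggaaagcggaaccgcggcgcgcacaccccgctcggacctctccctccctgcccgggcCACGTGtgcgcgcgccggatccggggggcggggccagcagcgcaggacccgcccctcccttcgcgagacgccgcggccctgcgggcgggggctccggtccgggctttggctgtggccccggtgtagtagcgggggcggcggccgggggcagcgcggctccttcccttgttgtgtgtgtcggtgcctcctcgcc
MXD4 (chr4:2262110-2262359, minus strand): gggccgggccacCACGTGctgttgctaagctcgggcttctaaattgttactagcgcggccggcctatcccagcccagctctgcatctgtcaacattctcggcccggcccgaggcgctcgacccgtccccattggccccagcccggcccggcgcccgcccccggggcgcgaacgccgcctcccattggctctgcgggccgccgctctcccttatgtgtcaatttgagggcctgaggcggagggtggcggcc
MXD3 (chr5:177312753-177313002, minus strand): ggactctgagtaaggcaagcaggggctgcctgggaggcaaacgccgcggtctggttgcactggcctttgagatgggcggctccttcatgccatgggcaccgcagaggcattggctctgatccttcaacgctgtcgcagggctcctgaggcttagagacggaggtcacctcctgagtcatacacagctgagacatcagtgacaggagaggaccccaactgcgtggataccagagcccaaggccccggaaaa
The first base of the motif lies 50 bases before the start of MLX, 193 before that of MNT and 238 before that of MXD4. In the values given below, the fold changes of these 3 genes in MOLM-13 were 0.26 for MLX, 0.06 for MNT and 0.04 for MXD4, and none passed the test.

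All values are TPM, an abundance unit that corrects for transcript length and so allows levels of different genes to be set side by side. TPM keep no record of read number, so sequencing depth is unknown. The number of symbols at 1 TPM or more ran from 12112 to 12416 per library in MOLM-13 and from 11042 to 11446 in ER-Hoxa9. Same-numbered MOLM-13 libraries resembled each other, and the replicate 3 pair stood apart in its erythroid transcripts. The fetal globin HBG2 was at 220.5 TPM in WM-1119 replicate 3 and 75.0 TPM in DMSO replicate 3, and it was listed at 0 in the other 4 MOLM-13 libraries. Ribosomal protein genes took 33.9% and 39.8% of that pair's TPM, and 25.7% to 28.4% in the other MOLM-13 libraries. Myeloid identity genes (PTPRC, SPI1, CEBPA, CD33, FCER1G, TYROBP and CSF2RB) were all tested in both lines, with summed levels of 1145 to 1581 TPM in WM-1119 and 1149 to 1207 TPM in DMSO libraries of MOLM-13. The same sum was 1649.9 and 2233 TPM in WM-1119 and 1464 and 1604 TPM in DMSO libraries of ER-Hoxa9. KAT6A, the target of the inhibitor, averaged 18.4 ± 3.95 TPM in WM-1119 and 18.3 ± 4.63 TPM in DMSO (SD, n = 3 libraries each) in MOLM-13. In ER-Hoxa9 it averaged 17.1 ± 0.653 TPM in WM-1119 and 15.4 ± 1.61 TPM in DMSO (n = 2 each).

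None of the 9 members passed the test in either line, which does not show that they did not change, since most of their 95% intervals span differences in both directions. Fold changes below are differences of log2(TPM + 1), WM-1119 minus DMSO, fitted with limma over every gene whose mean reached 1 TPM, and all 9 members were above that filter in both lines. A call required a two-sided p, adjusted by Benjamini and Hochberg's method, under 0.05. In MOLM-13 the test called 0 of 9 members, against 0.00804% of the 12436 genes tested, and in ER-Hoxa9 0 of 9, against 0.0352% of 11362. These calls were 1 and 4 entries. MIR191 in MOLM-13, and Mir7050, Mirlet7i, Mir1955 and Apoo-ps in ER-Hoxa9, were each listed at 0 in all libraries of 1 group, and they are named here after their values were seen. With the replicate number as a block, 0 genes were called in MOLM-13. At an unadjusted p under 0.05, 1 member passed in MOLM-13 (3.05% of all genes). It was MXD3, which was higher (2.08% of all genes), and no member was lower (0.965%). In ER-Hoxa9 1 member did so (12.8% of all genes), which was Myc, lower (1.13%). With the replicate block 3 members did so in MOLM-13 (18.1% of all genes), MXD3 and MLX being higher (13.2%) and MYC lower (4.91%).

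MYC was the most abundant member in every library. MYC (GRCh38 chromosome 8, 127735434 to 127741434, plus strand) was at 136, 78.2 and 113 TPM in WM-1119 libraries 1, 2 and 3 of MOLM-13, against 157, 127 and 169.96 TPM in DMSO libraries 1, 2 and 3. Each WM-1119 library was below the DMSO library of the same number, but the groups overlap, because WM-1119 replicate 1 lies above DMSO replicate 2. The group means were 109 ± 28.9 TPM in WM-1119 and 151 ± 21.8 TPM in DMSO (SD, n = 3 each), a fold change of -0.50 ± 0.25 (SE, limma adjusted p = 0.999985). Its 95% interval ran from -1.08 to 0.09, and from -0.79 to -0.20 with the replicate block (limma adjusted p = 0.173). By pairs, the WM-1119 level was 0.866, 0.614 and 0.665 times the DMSO level in replicates 1, 2 and 3. Without WM-1119 replicate 2, the lowest library, the fold change was -0.28.

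In ER-Hoxa9, Myc was at 225 and 247 TPM in the WM-1119 libraries, against 317 and 302 TPM in the DMSO libraries. Both WM-1119 libraries lay below both DMSO libraries. Groups that do not overlap were found for 48.2% of all genes tested in this line. The means were 236 ± 16.2 TPM in WM-1119 and 309 ± 10.8 TPM in DMSO (SD, n = 2 each), a fold change of -0.39 ± 0.11 (limma adjusted p = 0.313) with a 95% interval from -0.67 to -0.11. The direction was the same in both lines and under every scaling tried. The median of all genes tested was 0.05 in MOLM-13 and 0.12 in ER-Hoxa9, and median-of-ratios scaling moved the ER-Hoxa9 median to -0.01. Relative to those medians, MYC stood at -0.55 in MOLM-13 and -0.51 in ER-Hoxa9. In these bulk libraries fewer cells with a high MYC level and less MYC RNA per cell cannot be told apart.

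**Figure D1:**
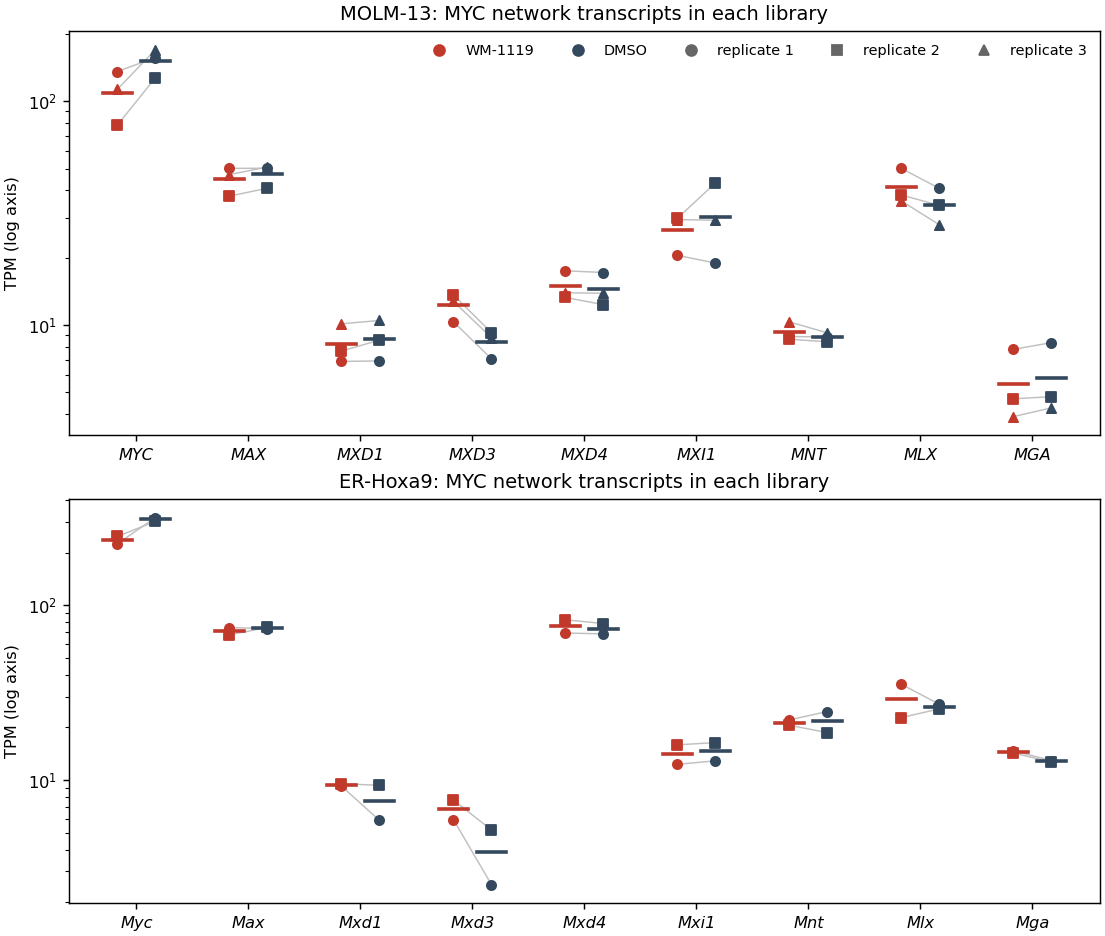
TPM of the 9 network transcripts (log axis) in each library of MOLM-13 (top) and ER-Hoxa9 (bottom), WM-1119 in red and DMSO in dark blue, with bars at group means and lines joining libraries of the same replicate number. MYC lies lower in WM-1119 than in DMSO in each same-numbered pair, from 78.2 to 136 TPM against 127 to 169.96 TPM in MOLM-13, and MXD3 lies higher.

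MAX, the common partner through which MYC and its antagonists bind DNA, differed little between the groups. MAX (chromosome 14, 65006174 to 65102695, minus strand) was at 50.1, 37.6 and 46.98 TPM in WM-1119 libraries 1, 2 and 3 of MOLM-13, against 50.1, 40.9 and 50.8 TPM in DMSO. In ER-Hoxa9, Max was at 74.4 and 67.8 TPM in WM-1119, against 73.5 and 74.6 TPM in DMSO. The groups overlap in both lines. Fold changes were -0.08 ± 0.19 in MOLM-13 (95% interval -0.53 to 0.38, limma adjusted p = 0.999985) and -0.06 ± 0.11 in ER-Hoxa9 (-0.34 to 0.22, limma adjusted p = 0.837). With the replicate block the MOLM-13 interval was -0.25 to 0.09 (limma adjusted p = 0.569). Those intervals leave room for differences in either direction. The ratio of MYC to MAX transcripts was 2.71, 2.08 and 2.40 in WM-1119, against 3.12, 3.12 and 3.35 in DMSO libraries of MOLM-13. It was 3.02 and 3.65 in WM-1119, against 4.31 and 4.05 in DMSO libraries of ER-Hoxa9. In both lines every WM-1119 library had fewer MYC transcripts per MAX transcript than every DMSO library of that line, a description with no test.

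Among the antagonists that compete for MAX, MXD3 had the largest positive fold change of all members in both lines. MXD3, a member of the MXD family that in mouse embryos marks cells in S phase before they differentiate (chromosome 5, 177301461 to 177312757, minus strand), was at 10.3, 13.6 and 12.8 TPM in WM-1119 libraries 1, 2 and 3 of MOLM-13, against 7.06, 9.24 and 8.78 TPM in DMSO. Every WM-1119 library was above every DMSO library. Groups that do not overlap were found for 6.97% of all genes tested in MOLM-13. The pairs were close to each other, with WM-1119 at 1.47, 1.47 and 1.45 times DMSO. The means were 12.2 ± 1.70 TPM in WM-1119 and 8.36 ± 1.15 TPM in DMSO (SD, n = 3 each), a fold change of 0.50 ± 0.18 (95% interval 0.07 to 0.93, limma adjusted p = 0.999985). With the replicate block the interval was 0.32 to 0.68 (limma adjusted p = 0.123).

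In ER-Hoxa9, Mxd3 was at 5.95 and 7.69 TPM in WM-1119, against 2.52 and 5.18 TPM in DMSO. The groups do not overlap, which was so for 48.2% of all genes tested in this line, and DMSO replicate 1 is the lowest library. The fold change was 0.74 ± 0.31 (95% interval -0.05 to 1.52, limma adjusted p = 0.405), and it was 0.33 without DMSO replicate 1 and 1.14 without DMSO replicate 2. Relative to the median of all genes, MXD3 stood at 0.45 in MOLM-13 and 0.62 in ER-Hoxa9. In the human annotation MXD3 shares 17.97% of its exonic bases with RAB24 on the same strand and 22.5% with PRELID1 on the opposite strand, so its level is uncertain where reads could fall to either gene. RAB24 averaged 25.98 ± 6.21 TPM in WM-1119 and 26.2 ± 4.00 TPM in DMSO (n = 3 each), with a fold change of -0.02. PRELID1 averaged 198 ± 32.6 TPM in WM-1119 and 187 ± 39.6 TPM in DMSO, with a fold change of 0.09. How reads were divided between MXD3 and these more abundant neighbours was not tested.

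MXD1, the antagonist best known for its appearance during myeloid maturation, was low in both lines (chromosome 2, 69897688 to 69942945, plus strand). It was at 6.87, 7.64 and 10.1 TPM in WM-1119 libraries 1, 2 and 3 of MOLM-13, against 6.91, 8.56 and 10.5 TPM in DMSO. In ER-Hoxa9, Mxd1 was at 9.24 and 9.54 TPM in WM-1119, against 5.88 and 9.32 TPM in DMSO. The groups overlap in both lines, and in ER-Hoxa9 the difference rests on DMSO replicate 1, since the fold change of 0.30 ± 0.22 was 0.0091 without that library. In MOLM-13 the fold change was -0.07 ± 0.21, and neither value passed (limma adjusted p = 0.999985 and 0.583 in MOLM-13 and ER-Hoxa9). With the replicate block the MOLM-13 interval was -0.26 to 0.13 (limma adjusted p = 0.675).

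MXD4 was the antagonist that differed most in level between the lines, although the 2 tables were normalised separately. MXD4 (chromosome 4, 2247432 to 2262294, minus strand) was at 17.5, 13.3 and 13.9 TPM in WM-1119 libraries of MOLM-13, against 17.2, 12.3 and 13.9 TPM in DMSO. Mxd4 was at 69.3 and 82.5 TPM in WM-1119, against 68.5 and 78.5 TPM in DMSO libraries of ER-Hoxa9. WM-1119 libraries lay slightly above the same-numbered DMSO libraries throughout, but the groups overlap, and the fold change of 0.04 in each line turned negative with median-of-ratios scaling or quantile normalisation.

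MXI1, a relative of MXD1 (chromosome 10, 110207605 to 110287365, plus strand), was at 20.5, 29.97 and 29.6 TPM in WM-1119 libraries 1, 2 and 3 of MOLM-13, against 18.9, 43.1 and 29.4 TPM in DMSO. DMSO replicate 2 is high, and without it the fold change of -0.13 ± 0.32 became 0.15. In ER-Hoxa9, Mxi1 was at 12.3 and 15.9 TPM in WM-1119, against 12.9 and 16.4 TPM in DMSO, with overlapping groups. MNT, a broadly expressed antagonist (chromosome 17, 2384060 to 2401118, minus strand), was at 8.88, 8.63 and 10.3 TPM in WM-1119, against 8.84, 8.41 and 9.22 TPM in DMSO libraries of MOLM-13. Mnt was at 22.1 and 20.6 TPM in WM-1119, against 24.7 and 18.7 TPM in DMSO libraries of ER-Hoxa9. The groups of both genes overlap in both lines, and fold changes were 0.06 ± 0.16 and -0.01 ± 0.16 for MNT in MOLM-13 and ER-Hoxa9. MNT shares 12.2% of its exonic bases with the antisense gene AC006435.1, and the strandedness of the libraries is not stated, so reads of the pair cannot be told apart.

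MLX, the partner of MondoA, had the second largest positive fold change in MOLM-13. MLX (chromosome 17, 42567068 to 42573239, plus strand) was at 50.1, 38.1 and 35.8 TPM in WM-1119 libraries 1, 2 and 3, against 40.8, 34.2 and 28.0 TPM in DMSO. Each WM-1119 library was above the DMSO library of its number, by 1.23, 1.11 and 1.28 times, but the groups overlap. The fold change was 0.26 ± 0.22 (limma adjusted p = 0.999985), with a 95% interval from 0.08 to 0.45 under the replicate block (limma adjusted p = 0.1997). It was 0.12 without WM-1119 replicate 1 and 0.13 without DMSO replicate 3. In ER-Hoxa9, Mlx was at 35.3 and 22.8 TPM in WM-1119, against 27.1 and 25.5 TPM in DMSO, so the 2 WM-1119 libraries lay on either side of the DMSO libraries. MLX shares 18.1% of its exonic bases with PSMC3IP on the opposite strand, which was at 9.59 ± 2.30 TPM in WM-1119 and 9.06 ± 3.10 TPM in DMSO libraries of MOLM-13 (n = 3 each).

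MGA, the large protein that carries MAX into a repressive Polycomb complex (chromosome 15, 41621224 to 41773081, plus strand), was the least abundant member in MOLM-13. It was at 7.78, 4.68 and 3.90 TPM in WM-1119 libraries 1, 2 and 3, against 8.34, 4.78 and 4.26 TPM in DMSO. In ER-Hoxa9, Mga was at 14.7 and 14.3 TPM in WM-1119, against 12.9 and 12.7 TPM in DMSO. The groups overlap in MOLM-13 and do not overlap in ER-Hoxa9, which was so for 48.2% of all genes tested in that line. The ER-Hoxa9 fold change of 0.17 ± 0.12 did not pass (limma adjusted p = 0.567) and was close to the median of all genes there. Replicate 1 was the highest library of both groups in MOLM-13, and it lay well apart from replicates 2 and 3 in each.

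**Figure D2:**
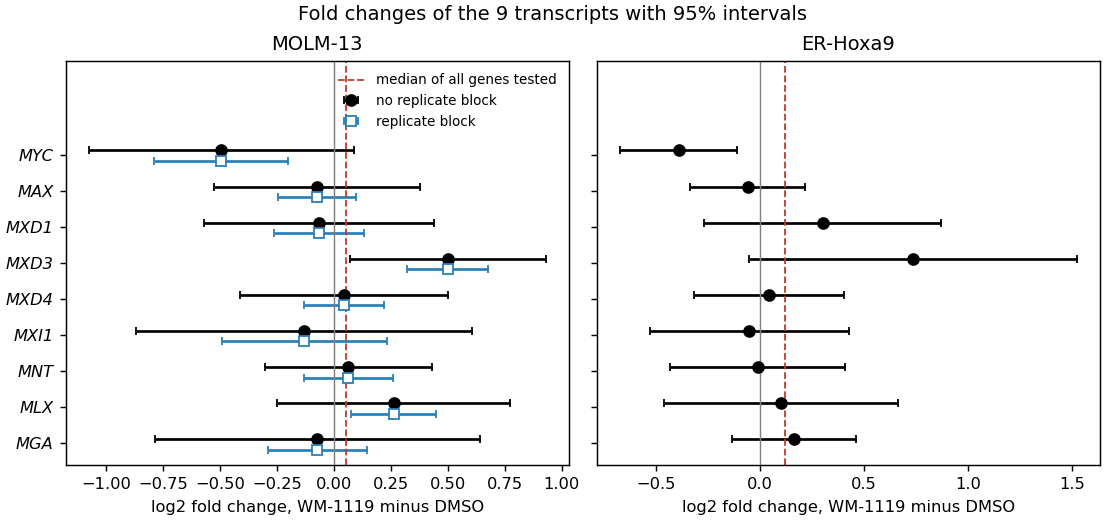
Fold changes (log2 of TPM + 1, WM-1119 minus DMSO) of the 9 transcripts with 95% intervals from limma, in MOLM-13 (n = 3 per group, black without and blue with the replicate block) and ER-Hoxa9 (n = 2 per group), and a dashed line at the median of all genes tested. MYC lies at -0.50 and -0.39 and MXD3 at 0.50 and 0.74 in MOLM-13 and ER-Hoxa9, while the other members lie between -0.13 and 0.30.

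The order of levels was led by MYC in all groups. In MOLM-13 the order with WM-1119 was MYC, MAX, MLX, MXI1, MXD4, MXD3, MNT, MXD1 and MGA, and with DMSO it was MYC, MAX, MLX, MXI1, MXD4, MNT, MXD1, MXD3 and MGA. Neighbours whose ranges overlap were MAX and MLX, MXD4 and MXD3, MNT and MXD1, and MXD1 and MGA with WM-1119. With DMSO they were MLX and MXI1, MNT and MXD1, MXD1 and MXD3, and MXD3 and MGA. In ER-Hoxa9 the order with WM-1119 was Myc, Mxd4, Max, Mlx, Mnt, Mga, Mxi1, Mxd1 and Mxd3, and with DMSO it was Myc, Max, Mxd4, Mlx, Mnt, Mxi1, Mga, Mxd1 and Mxd3. The overlapping neighbours were Max and Mxd4, and Mga and Mxi1, in both ER-Hoxa9 groups. MXD3 thus ranked sixth with WM-1119 and eighth with DMSO in MOLM-13, and last in both ER-Hoxa9 groups.

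Counted by direction, 4 of 9 members were higher with WM-1119 in each same-numbered pair of MOLM-13 (MXD3, MXD4, MNT and MLX), against 28.6% of all genes tested, and 4 of 9 were lower in each (MYC, MAX, MXD1 and MGA), against 14.4%. In ER-Hoxa9, 4 of 9 were higher in both pairs (Mxd1, Mxd3, Mxd4 and Mga), against 53% of all genes, and 2 were lower (Myc and Mxi1), against 15.7%. These counts rest on small differences for most members and have no test. Groups did not overlap for 1 member in MOLM-13 (MXD3) and 3 in ER-Hoxa9 (Myc, Mxd3 and Mga), against 6.97% of all genes in MOLM-13 and 48.2% in ER-Hoxa9.

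The balance between MYC and the antagonists that compete for MAX was described as the summed TPM of MXD1, MXD3, MXD4, MXI1 and MNT over that of MYC. It was 0.472, 0.935 and 0.679 in WM-1119 libraries 1, 2 and 3 of MOLM-13, against 0.376, 0.641 and 0.422 in DMSO. In ER-Hoxa9 it was 0.529 and 0.550 in WM-1119, against 0.361 and 0.424 in DMSO. The ratio was higher with WM-1119 in all 5 same-numbered pairs, while the groups overlap in MOLM-13 and not in ER-Hoxa9. The sum itself was 64.0, 73.1 and 76.7 TPM in WM-1119, against 58.9, 81.6 and 71.7 TPM in DMSO libraries of MOLM-13, so it was higher in 2 of 3 pairs. In ER-Hoxa9 the sum was 119 and 136 TPM in WM-1119, against 114 and 128 TPM in DMSO, higher in both pairs. MXD3 alone stood at 7.62%, 17.4% and 11.3% of the MYC level in WM-1119, against 4.50%, 7.26% and 5.16% in DMSO libraries of MOLM-13. In ER-Hoxa9 it stood at 2.65% and 3.11% in WM-1119, against 0.796% and 1.72% in DMSO. In both lines all WM-1119 libraries were above all DMSO libraries in this percentage, which combines the 2 members with the largest fold changes and has no test.

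**Figure D3:**
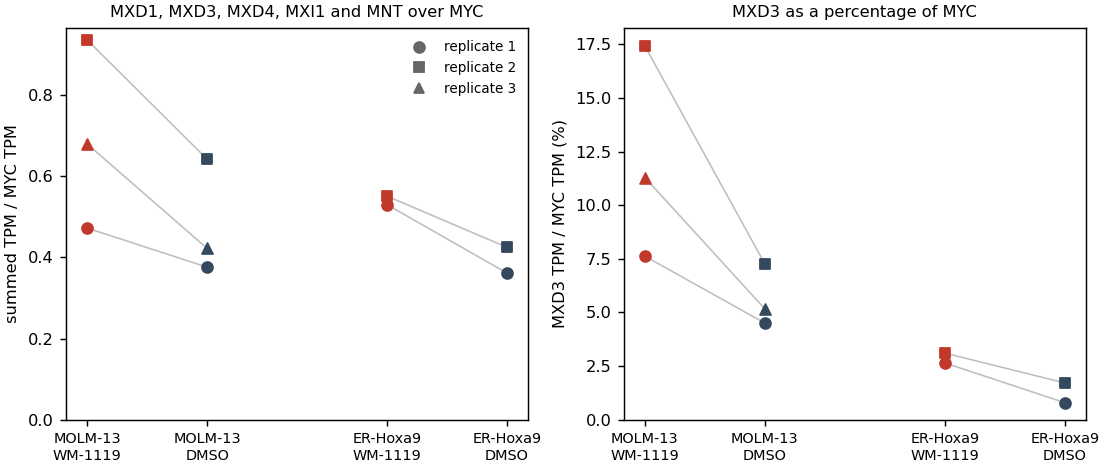
Left, summed TPM of MXD1, MXD3, MXD4, MXI1 and MNT over MYC TPM; right, MXD3 as a percentage of MYC TPM; each marker is a library (WM-1119 red, DMSO dark blue) and lines join libraries of the same replicate number. The left ratio is 0.472 to 0.935 in WM-1119 and 0.376 to 0.641 in DMSO libraries of MOLM-13, and 0.529 and 0.550 in WM-1119 and 0.361 and 0.424 in DMSO libraries of ER-Hoxa9.

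Among network genes outside the 9, other MYC and MondoA paralogs were low. MYCN was listed at 0 in all 6 MOLM-13 libraries, and Mycn was at 2.99 and 3.47 TPM in WM-1119, against 3.27 and 3.24 TPM in DMSO libraries of ER-Hoxa9. MYCL, another MYC paralog, was at 8.73, 7.43 and 5.50 TPM in WM-1119, against 6.10, 4.38 and 3.90 TPM in DMSO libraries of MOLM-13. MYCL was higher in each pair, opposite to MYC, with overlapping groups and a fold change of 0.50 ± 0.23 (limma adjusted p = 0.999985). With the replicate block its 95% interval was 0.26 to 0.74 (limma adjusted p = 0.157). MLXIPL (ChREBP), a glucose-responsive partner of MLX, was at 2.01, 1.58 and 1.41 TPM in WM-1119, against 4.00, 2.88 and 2.79 TPM in DMSO libraries of MOLM-13. Its groups do not overlap, which was so for 6.97% of all genes tested in MOLM-13. The fold change of MLXIPL was -0.66 ± 0.21 (limma adjusted p = 0.999985). With the replicate block the interval of MLXIPL was -0.98 to -0.34 (limma adjusted p = 0.157). MLXIP (MondoA) had fold changes of 0.03 ± 0.21 in MOLM-13 and 0.04 ± 0.11 in ER-Hoxa9. Mycl and Mlxipl were below the filter in ER-Hoxa9, at most 0.0192 and 0.202 TPM.

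In the lists of genes that act with the network, 0 genes passed in either line. Of 12 MYC cofactors, among them the TRRAP and EP400 acetyltransferase complexes, 3 had positive and 9 negative fold changes in MOLM-13 (median -0.04, against 0.05 for all genes), and 10 positive and 2 negative in ER-Hoxa9 (median 0.08, against 0.12). RUVBL2, an ATPase of those complexes, averaged 146 ± 23.4 TPM in WM-1119 and 157 ± 20.9 TPM in DMSO in MOLM-13, and 186 ± 2.59 TPM in WM-1119 and 175 ± 2.17 TPM in DMSO in ER-Hoxa9. Of 10 SIN3 and HDAC corepressor genes, 5 were positive and 5 negative in MOLM-13 (median 0.02), and 8 positive and 2 negative in ER-Hoxa9 (median 0.14). HDAC1, the deacetylase that MXD proteins recruit, averaged 132 ± 21.5 TPM in WM-1119 and 112 ± 19.2 TPM in DMSO in MOLM-13. Hdac1, added here for comparison with the human line, averaged 119 ± 4.46 TPM in WM-1119 and 88.2 ± 9.56 TPM in DMSO in ER-Hoxa9. Its fold change there was 0.44 ± 0.12 (limma adjusted p = 0.313). Of 11 genes of the MGA Polycomb complex, 7 were positive and 4 negative in MOLM-13 (median 0.09), and 8 positive and 3 negative in ER-Hoxa9 (median 0.11).

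Of the 11 genes for turnover of the MYC protein, all were tested in MOLM-13 (8 positive, 3 negative, median 0.05) and 10 in ER-Hoxa9 (6 positive, 4 negative, median 0.03). Aurka, a mitotic kinase that protects MYC family proteins, was at 79.8 and 61.7 TPM in WM-1119, against 36.0 and 56.6 TPM in DMSO libraries of ER-Hoxa9, a fold change of 0.62 ± 0.25 (limma adjusted p = 0.394). Ppp2r5a, a PP2A subunit that promotes MYC degradation, was at 82.9 and 79.4 TPM in WM-1119, against 60.5 and 66.0 TPM in DMSO, a fold change of 0.35 ± 0.11 (limma adjusted p = 0.337). Neither passed. Their groups do not overlap in ER-Hoxa9, which was so for 48.2% of all genes tested in that line. The Aurka difference lies mostly in the replicate 1 pair, with WM-1119 at 2.21 and 1.09 times DMSO in pairs 1 and 2. In MOLM-13 the fold changes were 0.19 ± 0.40 for AURKA and -0.02 ± 0.16 for PPP2R5A, a gene added here for comparison with the mouse line. Of 6 genes in the list of MIZ1 and genes that MYC represses with it, 4 were tested in each line. Their fold changes were positive for 2 in MOLM-13 and 4 in ER-Hoxa9. CDKN2C, the p18 cell-cycle inhibitor, was at 209, 174 and 173 TPM in WM-1119, against 186, 158 and 123 TPM in DMSO libraries of MOLM-13. Cdkn2c was at 29.5 and 29.5 TPM in WM-1119, against 17.5 and 23.1 TPM in DMSO libraries of ER-Hoxa9, a fold change of 0.53 ± 0.16 (limma adjusted p = 0.329). CDKN1A, the p21 inhibitor, had fold changes of -0.05 ± 0.28 in MOLM-13 and 0.06 ± 0.17 in ER-Hoxa9.

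All 30 textbook MYC targets were tested in both lines. In MOLM-13, 22 had negative and 8 positive fold changes, with a median of -0.06, against 61.5% positive and a median of 0.05 over all genes. In ER-Hoxa9, 18 were negative and 12 positive, with a median of -0.04, against 71.9% positive and a median of 0.12 over all genes. By limma 0 passed in either line, and 0 had an unadjusted p under 0.05. With the replicate block in MOLM-13, 5 of 30 were under that unadjusted threshold, all lower, against 18.1% of all genes and 4.91% lower, and 0 were called. With the block in ER-Hoxa9, 3 of 30 were higher and 1 lower at that threshold, against 15.5% and 2.4% of all genes. NPM1, which chaperones proteins in the nucleolus, was at 1384, 1213 and 1082 TPM in WM-1119, against 1584, 1502 and 1268 TPM in DMSO libraries of MOLM-13. In ER-Hoxa9, Npm1 was at 1706 and 1931 TPM in WM-1119, against 2213 and 2186 TPM in DMSO. It was lower in each same-numbered pair of both lines, with fold changes of -0.24 ± 0.17 (limma adjusted p = 0.999985) in MOLM-13 and -0.28 ± 0.12 (limma adjusted p = 0.420) in ER-Hoxa9. With the replicate block the MOLM-13 interval of NPM1 was -0.42 to -0.07 (limma adjusted p = 0.198). ENO1, the glycolytic enzyme enolase, had fold changes of -0.01 ± 0.23 in MOLM-13 and 0.33 ± 0.68 in ER-Hoxa9. Unlike Npm1, Eno1 was higher with WM-1119 in both ER-Hoxa9 pairs, at 1.25 and 1.27 times DMSO, while its replicates differed widely in both groups.

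Of 6 targets of MondoA and MLX, 5 were tested in each line, with 3 negative in MOLM-13 (median -0.11) and 4 negative in ER-Hoxa9 (median -0.29). TXNIP, which restrains glucose uptake, was at 153, 162 and 243 TPM in WM-1119, against 143, 199 and 274 TPM in DMSO libraries of MOLM-13. Txnip was at 135 and 235 TPM in WM-1119, against 210.4 and 286 TPM in DMSO libraries of ER-Hoxa9. The groups overlap in both lines, and 0 genes of the list passed.

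**Figure D4:**
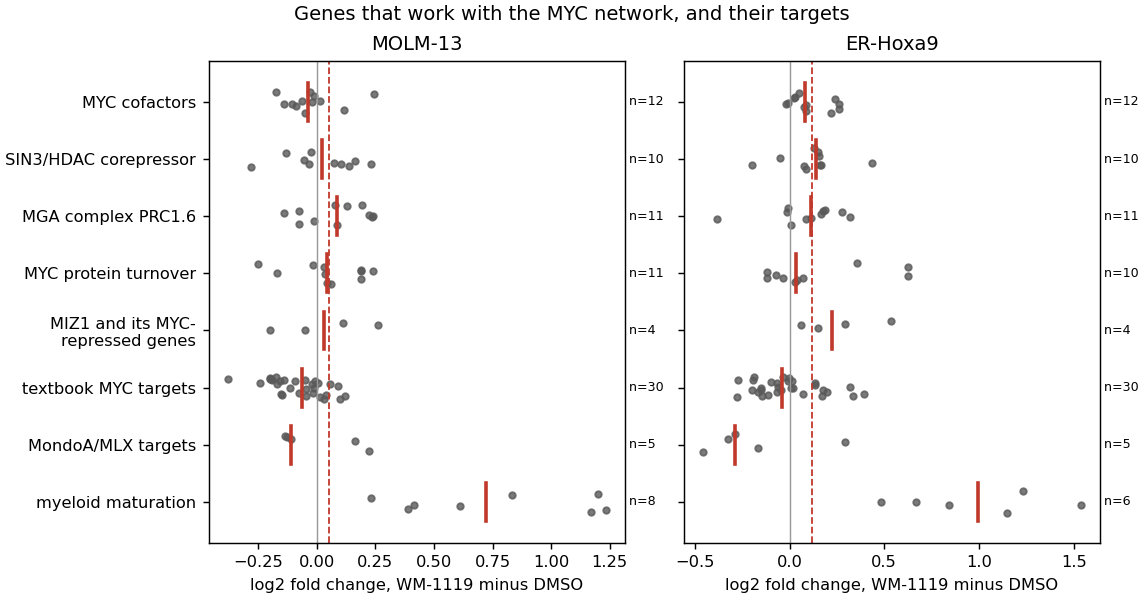
Fold changes (log2 of TPM + 1, WM-1119 minus DMSO) of the tested genes of 8 lists in MOLM-13 (left) and ER-Hoxa9 (right); each point is a gene, red bars are list medians, the dashed line is the median of all genes tested, and n is the number of genes tested. The textbook MYC targets have medians of -0.06 and -0.04, and the myeloid maturation markers 0.72 and 0.99.

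Markers of myeloid maturation had higher summed levels with WM-1119 in the same libraries. Of 14 such markers, 8 were tested in MOLM-13 and 6 in ER-Hoxa9, the others being below the filter or not listed. Over all listed markers, tested or not, the MOLM-13 sum was 2339 to 3583 TPM in WM-1119, against 754 to 2158 TPM in DMSO libraries. Most of that sum was LYZ alone. In ER-Hoxa9 the sum was 38.1 and 53.5 TPM in WM-1119, against 19.1 and 23.7 TPM in DMSO libraries. LYZ, lysozyme, was at 3292, 2894 and 2090.4 TPM in WM-1119, against 1969, 1465 and 607 TPM in DMSO libraries of MOLM-13 (fold change 1.17 ± 0.42, limma adjusted p = 0.999985). With the replicate block its 95% interval was 0.61 to 1.73 (limma adjusted p = 0.155). In ER-Hoxa9, Adgre1, the macrophage marker F4/80, averaged 9.09 ± 2.84 TPM in WM-1119 and 3.31 ± 1.34 TPM in DMSO (fold change 1.23 ± 0.31, limma adjusted p = 0.312). CSF3R, the G-CSF receptor, had fold changes of 0.42 ± 0.18 in MOLM-13 and 0.67 ± 0.24 in ER-Hoxa9. Of 8 primary granule and progenitor markers, 6 were tested in MOLM-13, all positive, and 7 in ER-Hoxa9, of which 6 were positive. Their sums overlap between the groups in MOLM-13, and were 6460.2 and 6952 TPM in WM-1119 and 4307 and 6061 TPM in DMSO libraries of ER-Hoxa9. None of these markers passed, and their part in the MYC and MXD3 values was not tested. Among other lineages, the erythroid list summed to 13.6 to 553 TPM in WM-1119 and 10.05 to 300.1 TPM in DMSO libraries of MOLM-13, the upper ends being the replicate 3 pair. B cell markers summed to 49.4 and 56.5 TPM in WM-1119 and 20.8 and 32.5 TPM in DMSO libraries of ER-Hoxa9, with 2 of 5 tested and Cd79b at 42.4 ± 2.24 TPM in WM-1119 and 23.5 ± 6.46 TPM in DMSO (n = 2 each). Megakaryocyte markers, 4 of 5 tested, summed to 49.1 and 57.2 TPM in WM-1119 and 23.8 and 40.9 TPM in DMSO libraries of ER-Hoxa9. B cell and megakaryocyte markers summed to at most 3.13 TPM in any MOLM-13 library. T and NK cell markers, 2 of 6 tested in each line, and stromal markers, 0 of 5 tested in MOLM-13 and 1 in ER-Hoxa9, gave sums that overlap between the groups in both lines. Most of the T and NK sum in MOLM-13 was NKG7, and CD3D averaged 4.74 ± 2.75 TPM in WM-1119 and 11.96 ± 7.71 TPM in DMSO. CD3D was lower in each same-numbered pair of both lines. NKG7 was higher in 2 of 3 MOLM-13 pairs and in both ER-Hoxa9 pairs. The part of these other lineages in the results was not tested. Without the replicate 3 pair, the blocked fold change in MOLM-13 was -0.45 for MYC and 0.50 for MXD3. In the pairs left, 1 and 2, MYC differed by -0.21 and -0.70.

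Genes with the most similar pattern were sought by the root mean square difference of centred log2 values over the libraries of a line, among genes averaging 10 TPM or more. For MYC over 6 MOLM-13 libraries these were C6orf120, PYCR1 and CGREF1, at 0.13, 0.14 and 0.14 log2 units, against a spread of MYC around its own mean of 0.36. PYCR1 is an enzyme of proline synthesis. For Myc over 4 ER-Hoxa9 libraries they were Slc22a3, Osbpl8 and Bola2, at 0.016, 0.018 and 0.022 log2 units, against 0.20 for Myc itself. For MXD3 they were FXYD5, SIGLEC7 and THEMIS2 in MOLM-13, at 0.09 to 0.10 against 0.29, and Gm34746, Fdps and Mvk in ER-Hoxa9, at 0.04 to 0.05 against 0.48. Fdps and Mvk are enzymes of the mevalonate pathway. No gene was among the 3 nearest in both lines. Of the other members, MAX was nearest to MYC in both lines, at 0.24 in MOLM-13 and 0.19 in ER-Hoxa9, and MXD3 was farthest, at 0.63 and 0.65. A gene without any variation would stand at 0.36 and 0.20, so in ER-Hoxa9 the Max value shows little shared pattern. The distance of MXD3 follows in part from its fold change, opposite in sign to that of MYC. With so few libraries and 7206 and 7501 candidates in MOLM-13 and ER-Hoxa9, likeness of this kind is a description.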

How the data were processed

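RNA-seq of 10 libraries was analysed, in 2 tables. The authors deposited TPM per gene symbol, estimated with Salmon against hg38 or mm10, per the submitters' processing notes; neither Salmon's version nor its annotation is known from the sources used. Each column sums to 1000000 TPM. Columns were matched to samples by treatment and number, with 0 columns left unassigned. The mouse columns say LysHoxa9, which was read as ER-Hoxa9, the only mouse line. No read counts were used, so no counting interval can be given.

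The members and lists were chosen with earlier results of these data known. For each line separately, limma 3.58.1 under R 4.3.3 fitted log2(TPM + 1) of genes averaging 1 TPM or more, using lmFit and then eBayes with a trend, and p-values were adjusted over all genes tested, with a threshold of 0.05. Intervals are 95% and unadjusted. The fits were also run on simulated data. There, in MOLM-13, the fit without a block missed changes of 0.5 in either direction, near those fitted for MYC and MXD3. With the block some of them were found. Each fit also made false calls. The simulated error was drawn separately for each library, so these runs do not show what the fits miss in the real libraries. Same-numbered MOLM-13 libraries deviated together from their group means, with correlations across genes of 0.52, 0.44 and 0.61, all above 0.1, a hint that the numbers pair the samples, which the labels do not explain. Printed p-values come from the fit without a block unless stated. Values with the replicate number as a block are given for each MOLM-13 gene with a printed p-value other than MIR191 and for counts. In ER-Hoxa9 they are given for Myc, Mxd3 and counts. No pair of libraries held identical values.

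All 9 members are reported. Of each other list, the genes that passed (there were none) and the 2 most abundant were to be named; MYCN, MYCL and MLXIPL were added to complete the paralogs, and the neighbours of MXD3 and MLX after their overlap was found. 1 such gene is not reported here. Examples from the 2 most abundant are given where a line's result is described. Human gene positions and exonic overlaps are from GENCODE release 29 (GRCh38), and promoter sequences from RefSeq (GRCh38.p14); mouse positions were not used. Alternatives were a pseudocount of 0.1, no filter or a filter of 5 TPM, median-of-ratios scaling, quantile normalisation, removal of microRNA entries, eBayes without trend, the replicate block and leaving out libraries. Plots were made in matplotlib 3.10.9 (Python 3.11.15).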

Additional observations from a re-analysis of the deposited data

Results flagged for a closer look

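Of the members and other named genes tested in both lines, 6 had fold changes of opposite sign in the 2 lines, with every same-numbered pair of a line on 1 side. Over all genes tested, 28.6% were higher and 14.4% lower in each MOLM-13 pair. In ER-Hoxa9, 53% were higher and 15.7% lower in both pairs. The share of all genes opposite in this way was not computed, so the count of 6 is only a description. The difference between the lines was not tested, since the tables were normalised separately. Lower in 3 of 3 MOLM-13 pairs and higher in 2 of 2 ER-Hoxa9 pairs were MGA, at -0.073 in MOLM-13 and 0.17 in ER-Hoxa9, MXD1, at -0.066 and 0.30, and RUVBL2, at -0.11 and 0.085. For Mxd1 the second ER-Hoxa9 pair differed by only 0.03. Higher in 3 of 3 MOLM-13 pairs and lower in 2 of 2 ER-Hoxa9 pairs were the myeloid gene FCER1G, at 0.81 in MOLM-13 and -0.12 in ER-Hoxa9, ARRDC2 of the MondoA list, at 0.16 and -0.33, and BOLA2, at 0.22 and -0.36. These are fold changes on the log2(TPM + 1) scale, WM-1119 relative to DMSO, and none passed the test. Bola2 was named because its ER-Hoxa9 values resembled those of Myc, so its direction there follows from that choice.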

How the results depend on the processing

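The count of members called was 0 in both lines under every alternative tried, which says nothing about stability. MYC and MXD3 kept their direction in both lines under all of them, as did MLX in MOLM-13 and Mxd1 and Mga in ER-Hoxa9. MYC ranged from -0.67 to -0.28 in MOLM-13 and from -0.54 to -0.32 in ER-Hoxa9, and MXD3 from 0.40 to 0.61 and from 0.33 to 1.14. The lowest adjusted p over the alternatives was 0.159 for MYC and 0.123 for MXD3 in MOLM-13, and 0.201 and 0.169 in ER-Hoxa9. The number of all genes called was 1 in MOLM-13 and moved to 0 with no filter, to 2 without trend and to 0 with the replicate block, alone, with median-of-ratios scaling or with any pair left out (2256 genes had an unadjusted p under 0.05 with the block, against 379 without), and ran from 0 to 6 when 1 library was left out. In ER-Hoxa9 it was 4, 0 with a pseudocount of 0.1, no filter, a filter of 5 TPM or the replicate block, 2 without microRNA entries, 16 without trend, and 0 whenever 1 library was left out (561 to 1924 at an unadjusted p under 0.05). The split was 2 higher and 2 lower, and 1 higher and 2 lower with either scaling. In ER-Hoxa9 the deviations of same-numbered libraries correlated at 0.21, also above 0.1. With 2 libraries per group this is a weak hint of pairing, and the labels do not explain the numbers. The replicate block changed no call of a member there. With it the 95% interval was -0.65 to -0.13 for Myc and 0.24 to 1.23 for Mxd3 (limma adjusted p = 0.201 for each). At an unadjusted p under 0.05 with it, 3 textbook MYC targets were higher and 1 lower. The causes of these shifts were not tested.

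Small fold changes turned sign. With median-of-ratios scaling they were -0.023 for MXD4 and -0.0012 for MNT in MOLM-13 (the same with the replicate block added) and -0.10 for Mxd4 and -0.039 for Mlx in ER-Hoxa9. With quantile normalisation they were -0.016 for MXD4, -0.077 for Mxd4 and -0.027 for Mlx. MXI1 was 0.059 with the replicate block and pair 2 left out. When 1 library was left out, MOLM-13 values ran from -0.18 to 0.043 for MAX, -0.21 to 0.068 for MXD1, -0.070 to 0.17 for MXD4, -0.42 to 0.15 for MXI1, -0.0094 to 0.11 for MNT and -0.32 to 0.18 for MGA, and ER-Hoxa9 values from -0.13 to 0.0081 for Max, -0.080 to 0.17 for Mxd4, -0.22 to 0.12 for Mxi1, -0.20 to 0.18 for Mnt and -0.20 to 0.41 for Mlx. TPM give no depth, so how far read number limits the low members, such as MXD3 and MGA, is unknown.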
